A study of Rattus norvegicus with 144 samples.

Results

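This account covers the liver of rats given 60 mg/kg of AMG B by mouth every day for 4 days, against rats given 0 mg/kg for the same time. The arrays were chosen by their titles alone, and they are 8 of the 144 arrays in the series. All 72 rats were male Sprague Dawley animals, 8 to 10 weeks old. The treated rats were animals 21, 22, 23 and 24 and the controls animals 13, 14, 15 and 16, with 1 liver array per rat (n = 4 per group). Groups on the same day at 3 mg/kg (animals 17 to 20), and the 60 mg/kg and control groups on days 1 and 14, were used for comparison. The compound is known here by its code name, its target is not stated in the labels, and the study's design text describes its pharmacology as antiangiogenic. The content of the control dose and the time from the last dose to sampling are not stated there either.

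Each value is a score that the authors deposited. As the values show, a score of 0 is about the mean of that probe set over the arrays, and 1 unit is about its standard deviation (SD) over them. A difference in score is therefore on the scale of that SD and gives no fold, and scores of different genes cannot be ranked as levels. Per-animal values are given in the order of the animal numbers. Differences are treated minus control, and adjusted p values come from limma with Benjamini-Hochberg adjustment over 14217 genes, with a threshold of 0.05. The 15 hepatocyte markers measured had a mean score of 0.575 to 0.823 on the 8 arrays, against -1.01 to -0.965 on the adrenal arrays of the series. Markers of adrenal gland (-0.683 to -0.669) and of pancreas (-0.425 to -0.415) were low on all 8. No array of the 8 stood apart: pairwise correlations over all probe sets ran from 0.542 to 0.682, and the SD over the probe sets of one array from 0.809 to 0.846.

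The liver is perfused through sinusoids, capillaries whose endothelial cells are fenestrated and carry scavenger receptors such as Stab1, Stab2, Lyve1 and Mrc1. These cells depend on vascular endothelial growth factor (VEGF), much of it made by hepatocytes, and antiangiogenic agents act on such signalling. Hepatocytes in an adult liver rarely divide, but can re-enter the cell cycle. They also make cholesterol under the control of sterol-sensing transcription factors, and they answer foreign compounds through receptors such as the aryl hydrocarbon receptor, whose best known targets are the Cyp1 enzymes. Because whole tissue was measured, fewer cells of a type and less RNA per cell cannot be told apart.

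On day 4, 120 of 14217 genes changed at 60 mg/kg (0.844%), 74 of them up (0.521%) and 46 down (0.324%). In 112 of the 120, every treated rat lay beyond every control, a separation found in 1214 of all genes (8.54%). The rises held mitotic genes led by Cdkn3, the Cyp1 enzymes, interferon-inducible and immunoproteasome genes and late steps of cholesterol synthesis. Among the falls were sinusoidal endothelial genes, globins with Alas2, and single matrix and stellate cell genes. Of 43 gene lists, 13 held a called member and 30 held none. With animals left out one at a time, 36 of the 120 calls (25 rises and 11 falls) held under each of the 8 omissions, and no call turned its sign. The count ranged from 50 without animal 23 to 142 without animal 13, and was 61 without animal 14, 71 without animal 16 and 64 without animal 21. A fit to the 8 arrays alone, with a spread estimated from them only, called 61 genes, 31 of them among the 120.

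**Figure D1:**
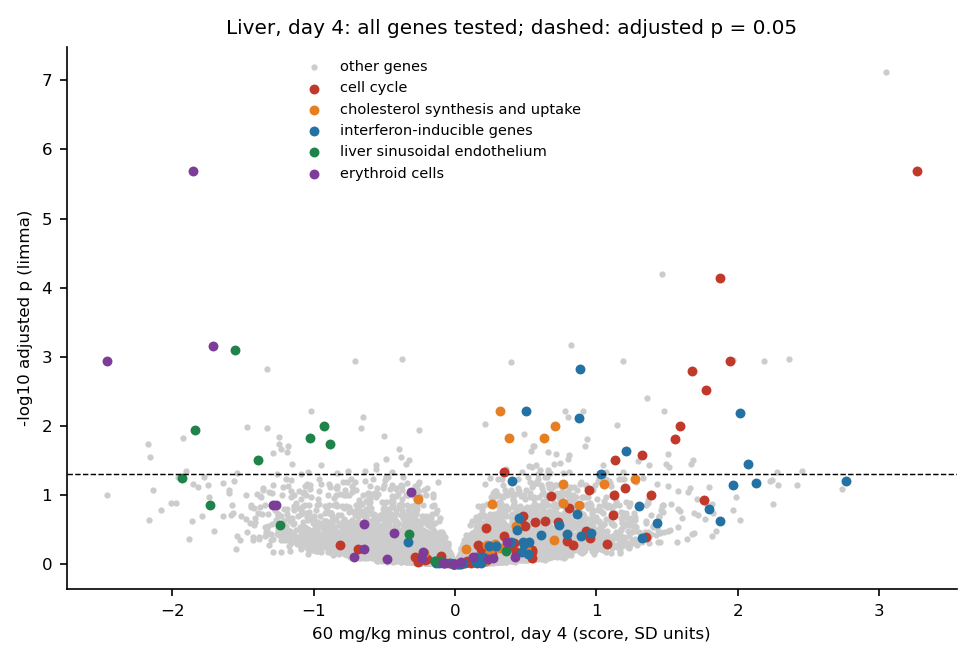
Every gene tested in liver on day 4, plotted by its difference in score between 60 mg/kg and control rats (horizontal, SD units) and by -log10 of its adjusted p from limma (vertical). The dashed line marks the threshold of 0.05, and 5 gene lists are coloured: cell cycle, cholesterol and interferon-inducible genes that pass lie on the right, sinusoidal endothelial and erythroid genes that pass lie on the left.

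Since the called mitotic genes rose together, their promoters are shown first. Of the 10 called members of the cell cycle list, 8 had an entry in the RefSeq promoter table (assembly GRCr8, 250 bases before to 50 after the start). The CCAAT box (CCAAT, searched on both strands) was found in 7 of the 8, with 21 matches, and in 37.7% of all 27457 promoters of the table. The core of the cell cycle homology region (TTTGAA, searched on both strands) was found in 6 of the 8, with 9 matches, and in 18.1% of all promoters. Both are motifs known from promoters of genes expressed around mitosis. The motifs were searched with the calls known, and a match is a description of the letters only. Stretches of 4 promoters are printed 5′ to 3′ on the strand of the gene, with matches to either motif on either strand in capitals (ATTGG is CCAAT and TTCAAA is TTTGAA on the other strand). They cover chr15:22502217-22502381 (plus strand) for Cdkn3, chr20:19265063-19265302 (plus strand) for Cdk1, chr2:111966617-111966801 (minus strand) for Ect2 and chr10:25665236-25665463 (minus strand) for Hmmr.
Cdkn3: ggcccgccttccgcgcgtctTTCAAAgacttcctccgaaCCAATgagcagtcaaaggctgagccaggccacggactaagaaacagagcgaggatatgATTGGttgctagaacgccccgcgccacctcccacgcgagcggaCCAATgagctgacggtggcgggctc
Cdk1: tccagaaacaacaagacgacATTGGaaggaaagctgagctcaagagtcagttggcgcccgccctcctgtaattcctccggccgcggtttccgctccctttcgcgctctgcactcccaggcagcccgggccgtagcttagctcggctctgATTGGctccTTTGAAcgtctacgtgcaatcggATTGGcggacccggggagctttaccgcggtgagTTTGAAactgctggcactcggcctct
Ect2: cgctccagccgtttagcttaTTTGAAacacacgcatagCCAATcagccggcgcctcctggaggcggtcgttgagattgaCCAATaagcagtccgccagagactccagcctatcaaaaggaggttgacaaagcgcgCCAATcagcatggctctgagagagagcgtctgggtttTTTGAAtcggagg
Hmmr: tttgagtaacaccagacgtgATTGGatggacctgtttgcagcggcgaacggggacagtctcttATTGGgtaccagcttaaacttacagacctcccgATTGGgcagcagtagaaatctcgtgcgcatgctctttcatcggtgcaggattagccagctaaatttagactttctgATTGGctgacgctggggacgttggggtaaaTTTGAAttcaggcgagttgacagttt

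In the interferon group, the interferon-stimulated response element was searched on both strands of the 6 promoters held for its 7 called members. It was found in 2 of them, Psmb8 and Psmb10, with 3 matches, and in 3.77% of all promoters. Those stretches (chr20:4657022-4657055 (minus strand) and chr19:50743283-50743385 (minus strand)) are printed with the matches in capitals.
Psmb8: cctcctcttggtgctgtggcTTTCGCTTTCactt
Psmb10: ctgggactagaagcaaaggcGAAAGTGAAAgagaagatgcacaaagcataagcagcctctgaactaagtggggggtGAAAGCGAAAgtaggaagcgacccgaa
For the cholesterol genes, the sterol regulatory element (TCACNCCAC, both strands, in 1.13% of all promoters) was in 0 of the 3 promoters held. For the Cyp1 genes, the xenobiotic response element (TNGCGTG, both strands, in 5.12% of all promoters) was in 0 of the 1 held, that of Cyp1a2. The windows say nothing of sites further away.

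Part of the cell cycle list rose, with most calls among genes of mitosis. Of 65 measured list members, 10 rose and 0 fell (0.521% of all genes rose), and 54 had a higher mean in the treated rats. With no overlap, 22 were separated upwards (4.45% of all genes were) and 2 downwards (4.09%). Those 2 were among the 8 genes of the step into S phase. The median difference was 0.48, against 0.00 over all genes. By role, the calls were 4 of 14 genes of mitotic entry, 5 of 25 of mitotic exit, spindle and cytokinesis, 1 of 8 of the step into S phase and 0 of 18 of DNA replication. Cdkn3, a phosphatase that acts on cyclin-dependent kinases, had the largest rise of the 120 called genes. It scored 3.27, 3.41, 3.09 and 1.86 in the treated rats and 0.210, -0.481, -0.638 and -0.507 in the controls (2.91 ± 0.709 against -0.354 ± 0.382, mean ± SD, difference 3.26, SE 0.354, adjusted p = 2.03e-06). The lowest treated rat was animal 24, still far above the highest control, animal 13. Cdk1, the kinase that drives entry into mitosis, scored 1.93, 1.97, 1.23 and 1.14 against 0.213, -0.510, -0.674 and -0.547 (difference 1.95, SE 0.320, adjusted p = 0.00116). Its partner cyclin Ccnb2 scored 1.77, 1.32, 1.36 and 0.903 against -0.155, -0.378, -0.605 and -0.228 (difference 1.68, adjusted p = 0.00159). For both, no treated rat overlapped a control. Ccna2, cyclin A2, which acts in S phase and towards mitosis, scored 1.92, 1.88, 0.482 and 1.13 against 0.0146, -0.615, -0.753 and -0.342 (difference 1.78, adjusted p = 0.00296). Aurka, a kinase of the spindle poles, rose too (0.0681, -0.219, -0.0253 and -0.0672 against -0.407, -0.546, -0.524 and -0.161, difference 0.349, adjusted p = 0.0459), but its groups overlapped between animals 22 and 16.

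Among genes that act on the spindle and at exit from mitosis, Kif20a, a kinesin of the midzone, had the firmest call. It scored 1.80, 1.95, 1.27 and 0.978 in the treated rats and -0.0440, -0.716, -0.125 and -0.599 in the controls (difference 1.87, SE 0.247, adjusted p = 7.33e-05). Ube2c, the ubiquitin-conjugating enzyme of the anaphase-promoting complex, scored 2.24, 1.52, 0.708 and 0.897 against 0.207, -0.128, -0.631 and -0.454 (difference 1.59, adjusted p = 0.00982). Hmmr, a hyaluronan receptor that also binds spindle microtubules, scored 2.50, 2.79, 2.22 and 1.99 against 0.851, 0.509, 0.936 and 0.981 (difference 1.56, adjusted p = 0.0152). In each of these 3 genes all treated rats lay above all controls. Ect2, which acts in cytokinesis, scored 1.05, 0.988, 1.01 and 0.545 against -0.246, -0.308, -0.786 and -0.354 (adjusted p = 0.0259). Prc1, which bundles midzone microtubules, scored 0.696, 0.705, -0.134 and -0.189 against -0.685, -0.953, -0.858 and -0.938 (adjusted p = 0.0307). Animals 21 and 22 were the higher treated rats for Ccna2, Cdk1, Ube2c and Prc1. The proliferation marker Mki67 scored 1.07, 0.960, 0.787 and 1.14 against 0.256, -0.256, -0.586 and -0.281 without passing the test (difference 1.20, adjusted p = 0.0793). Nor did genes of DNA replication pass, among them Mcm6 (difference 0.637), Top2a (0.542) and Pcna (0.161), or the mitotic kinase Plk1 (-0.282, adjusted p = 0.790).

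Over the whole cell cycle list, the mean score was 0.576, 0.460, 0.432 and 0.218 in the treated rats and -0.0634, -0.281, -0.254 and -0.0885 in the controls, with no overlap. Animal 24 was the lowest treated rat. The calls of Cdkn3, Cdk1, Ccnb2, Ccna2 and Kif20a held under each omission of an animal, though that of Ccna2 was lost with only the compared groups in the fit (adjusted p = 0.0959). That of Ube2c was lost without animal 21 (adjusted p = 0.0583) and that of Hmmr without animals 14, 21 or 22 (up to 0.0625). Calls of Ect2 (6 omissions, adjusted p up to 0.0818), Prc1 (5 omissions, up to 0.108) and Aurka (6 omissions, up to 0.158) were weaker. The list had 5 calls without animal 21 and 6 without animal 14. Other called genes with known parts in mitosis were on no list and were chosen after their values were seen: Aspm (difference 1.35), Spc24 (1.29), Cenpw (1.51) and Cdca3 (0.802) rose. The call of Aspm held under each omission but not with only the compared groups (0.0729), and the others were lost under 4, 6 and 6 (up to 0.122, 0.122 and 0.113). Also chosen after the values were seen, Cdc25b, a phosphatase that activates Cdk1, fell (-0.784, -0.747, -1.02 and -0.963 against -0.115, 0.565, 1.06 and -0.103, difference -1.23, adjusted p = 0.0212), a call lost without animals 14, 15 or 23 (up to 0.0885).

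**Figure D2:**
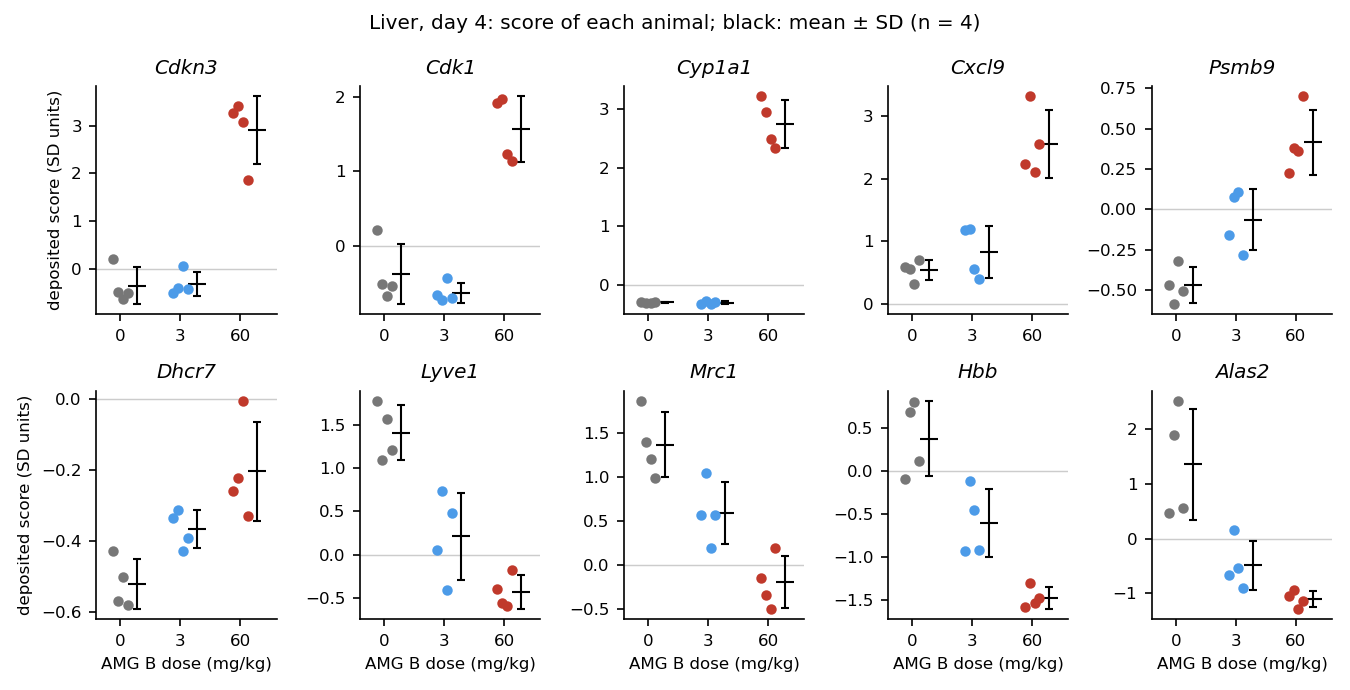
Scores (vertical, SD units) of 10 genes in each rat on day 4 by AMG B dose in mg/kg (horizontal), with the mean and SD of each dose in black (n = 4). At 60 mg/kg the rats lie above all controls for Cdkn3, Cdk1, Cyp1a1, Cxcl9, Psmb9 and Dhcr7 and below all controls for Lyve1, Mrc1, Hbb and Alas2, while rats at 3 mg/kg lie near the controls for Cdkn3, Cdk1 and Cyp1a1.

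The aryl hydrocarbon receptor list gave the smallest adjusted p of the comparison. Cyp1a1, which oxidises polycyclic aromatic compounds, lies at chr8:66991940-66998014 (GRCr8), and Cyp1a2, which oxidises aromatic amines, at chr8:66971261-66978149. Cyp1a1 scored 3.22, 2.95, 2.49 and 2.34 in the treated rats and -0.290, -0.302, -0.307 and -0.294 in the controls (difference 3.05, SE 0.272, adjusted p = 7.51e-08). The controls lay within a very narrow range and every treated rat was far above it. Cyp1a2 scored 1.30, 1.24, 1.19 and 1.19 against 0.381, 0.471, 0.486 and 0.308 (difference 0.819, SE 0.123, adjusted p = 0.000676). The treated values were close together and did not overlap with the controls. These were 2 of 7 measured list members, with 0 lower (0.521% of all genes rose), and both calls held under each omission. Cyp1b1, of the same enzyme family, had a difference of 0.00214 (adjusted p = 0.988) and the receptor's repressor Ahrr one of 0.690 (adjusted p = 0.497). Nqo1, a quinone reductase that NRF2 also controls, scored 2.01, 1.49, 1.82 and 0.694 against 0.638, -1.09, 0.896 and 0.102 and overlapped between animals 24 and 15 (difference 1.37, adjusted p = 0.118). Of 26 CYP2, CYP3 and conjugating enzymes on the list of drug-metabolising enzymes, 0 passed in either direction (0.844% of all genes did), and their median difference was 0.00. Of the 17 measured genes on the list of NRF2 targets 0 passed. Of these, 13 had a higher mean, 3 were separated upwards (4.45% of all genes were) and 1 downwards (4.09%). Their list means were 0.571 to 0.692 in the treated and 0.125 to 0.258 in the control rats. Among them Gsta3, a glutathione transferase, scored 3.67, 3.11, 1.55 and 2.24 against 0.684, 0.379, 0.797 and -0.249 (adjusted p = 0.0611).

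Interferon-inducible genes were higher across the list. Of 47 measured members 7 rose and 0 fell (0.521% of all genes rose). Of the 47, 40 had a higher mean, 17 were separated upwards with no overlap (4.45% of all genes were), and the median difference was 0.48. The list's mean score was 0.932, 0.873, 0.8293 and 0.991 in the treated rats and 0.392, 0.0570, 0.261 and 0.101 in the controls, again with no overlap. The antigen-processing genes carried 4 of the 7 calls. Psmb8, Psmb9 and Psmb10 are the catalytic subunits that replace the constitutive ones in the immunoproteasome, and Psme1 is a subunit of its activator. Psmb9 scored 0.225, 0.382, 0.358 and 0.6997 against -0.467, -0.586, -0.320 and -0.508 (difference 0.887, SE 0.150, adjusted p = 0.00150). Psmb10 scored -0.0926, 0.00700, -0.0265 and -0.0633 against -0.454, -0.594, -0.554 and -0.573 (difference 0.500, adjusted p = 0.00606). Psme1 scored 0.796, 1.51, 0.962 and 1.30 against 0.261, 0.374, 0.353 and 0.0737 (difference 0.875, adjusted p = 0.00767). Psmb8 scored 0.593, 1.86, 0.874 and 1.19 against 0.412, -0.216, 0.180 and 0.00672 (difference 1.03, adjusted p = 0.0498), close to the threshold. In all 4 every treated rat was above every control. Of 30 constitutive proteasome subunits 0 passed in either direction (0.844% of all genes did), with a median difference of 0.06.

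Among the other interferon-inducible genes, Cxcl9, a chemokine that draws T cells, scored 2.23, 3.31, 2.10 and 2.56 in the treated rats and 0.584, 0.550, 0.320 and 0.697 in the controls (difference 2.01, SE 0.384, adjusted p = 0.00641). The related chemokines Cxcl10 (difference 0.198, adjusted p = 0.774) and Cxcl11 (0.293, adjusted p = 0.534) did not pass. Usp18, a protease that removes ISG15 and limits the response, scored 2.74, 1.60, 2.48 and 2.12 against 0.753, -0.312, 0.104 and 0.106 (difference 2.07, adjusted p = 0.0356). Irf9, the DNA-binding part of the complex that type I interferon activates, scored 1.86, 1.92, 1.81 and 2.05 against 1.01, 0.356, 0.903 and 0.538 (difference 1.21, adjusted p = 0.0230). Both were separated from the controls. The antiviral effector Mx2 scored 3.21, 2.93, 3.40 and 3.10 against 0.994, -0.305, 0.875 and 0.0331, a wide gap with a spread among the controls, and did not pass (difference 2.76, adjusted p = 0.0616). Oas1a (difference 2.13, adjusted p = 0.0657) and Isg15 (1.32, adjusted p = 0.419) did not pass either. The calls of Cxcl9, Psmb9, Psmb10 and Psme1 held under each omission of an animal, but that of Psme1 was lost with the mean of its probe sets (adjusted p = 0.216) and with only the compared groups (0.121). Those of Usp18 (adjusted p up to 0.111), Irf9 (up to 0.0927) and Psmb8 (up to 0.160) were each lost under 6 omissions. The list had 4 calls without each of animals 14, 16, 23 and 24. Further called genes outside the list were chosen after their values were seen and are known to answer to interferon: Lgals9, a galectin (difference 1.19), and the ADP-ribosyltransferases Parp12 (1.07, lost under 6 omissions, up to 0.146) and Parp10 (0.716, lost under 5, up to 0.110) rose. Of 18 measured markers of T, B and NK lymphocytes 0 passed (0.844% of all genes did), with a median of -0.09. Their list means were -0.315 to 0.0572 in the treated and -0.286 to -0.112 in the control rats. Their part in the rise of interferon-inducible genes was not tested.

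Late steps of cholesterol synthesis rose. Of 24 measured genes of synthesis, uptake and their regulators 4 rose and 0 fell (0.521% of all genes rose). Of the 24, 21 had a higher mean, 2 were separated upwards with no overlap (4.45% of all genes were) and 1 downwards (4.09%). The median difference was 0.35. All 4 called genes belonged to the 10 that lead from squalene to cholesterol, and all 10 of those had a higher mean. Sqle, which oxidises squalene and is a rate-limiting step, scored -0.242, -0.223, 0.191 and -0.265 in the treated rats and -0.263, -0.554, -0.620 and -0.614 in the controls (difference 0.378, adjusted p = 0.0148). Lss, which closes the sterol rings to lanosterol, scored 0.0920, 0.204, 0.824 and 0.0380 against -0.481, -0.396, -0.191 and -0.299 (difference 0.631, adjusted p = 0.0147). Msmo1, which removes methyl groups, scored -0.0701, 0.225, 0.684 and -0.323 against -0.278, -0.694, -0.653 and -0.677 (difference 0.704, adjusted p = 0.0101). Dhcr7, the last enzyme of the pathway, scored -0.260, -0.223, -0.00684 and -0.330 against -0.430, -0.570, -0.503 and -0.582 (difference 0.316, adjusted p = 0.00606). In all 4 genes animal 23 was the highest treated rat. In Msmo1 and Sqle animal 13 stood above the other controls and animal 24 lay just below it, while Lss and Dhcr7 had no overlap.

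Of the 6 isoprenoid steps before squalene 0 passed (0.844% of all genes did). Fdps, which makes farnesyl diphosphate, scored 0.130, 1.02, 1.91 and -0.0962 against 0.595, -0.503, -0.593 and -0.753, with animal 23 highest among the treated and animal 13 among the controls (adjusted p = 0.0693). Tm7sf2, a sterol reductase, scored 2.42, 3.09, 1.84 and 1.87 against 1.93, 0.722, 1.19 and 0.282 (adjusted p = 0.0579). The regulators Srebf2 (difference 0.434, adjusted p = 0.279) and Insig1 (0.503, adjusted p = 0.587) did not pass. Over the whole list the mean score was 0.513, 0.647, 1.03 and 0.283 in the treated rats and 0.611, 0.114, 0.0992 and -0.0497 in the controls, so the groups overlapped. Without animal 23 the list had 1 call, that of Dhcr7, since the adjusted p rose to 0.0535 for Msmo1, 0.0767 for Lss and 0.0767 for Sqle. Without animal 14 it had 2, and without animal 13 it had 9. Fitted on the 8 arrays alone it had 0 (adjusted p up to 0.279 for the 4 genes). Acss2, which makes acetyl-CoA for synthesis and was chosen after its values were seen, rose as well (difference 1.49, adjusted p = 0.0356), a call lost under 6 omissions (up to 0.144). Of 17 genes of fatty acid and triglyceride synthesis 0 passed (0.844% of all genes did), with 15 higher and a median of 0.25.

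**Figure D3:**
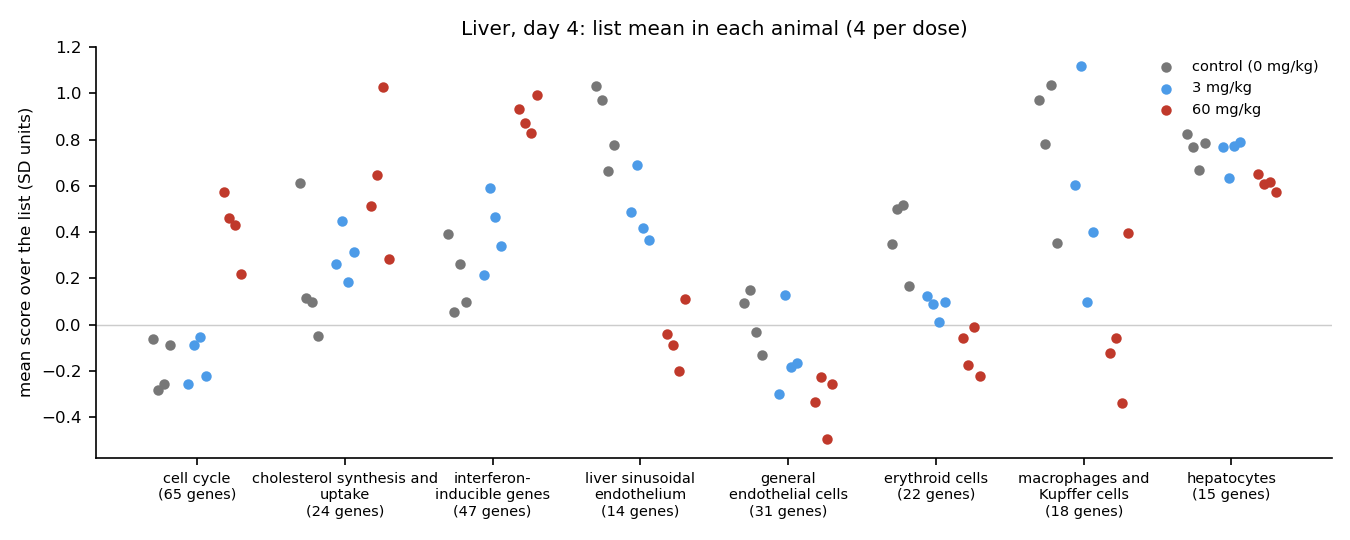
Mean score over the measured genes of 8 lists (vertical, SD units) in each rat on day 4, by dose (grey control, blue 3 mg/kg, red 60 mg/kg; 4 rats each). At 60 mg/kg the cell cycle and interferon-inducible lists lie above all controls and the 2 endothelial lists, the erythroid and the hepatocyte list below all controls, while the cholesterol and macrophage lists overlap with the controls.

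Sinusoidal endothelial genes fell. Of 14 measured markers of liver sinusoidal endothelium 6 fell and 0 rose (0.324% of all genes fell), 9 were separated downwards with no overlap (4.09% of all genes were), and the median difference was -0.98. The list's mean score was -0.0417, -0.0858, -0.200 and 0.113 in the treated rats and 1.03, 0.970, 0.664 and 0.777 in the controls. Mrc1, the mannose receptor of sinusoidal endothelium and macrophages, scored -0.146, -0.335, -0.495 and 0.197 against 1.86, 1.39, 1.20 and 0.993 (difference -1.56, SE 0.2402, adjusted p = 0.000786). Lyve1, a hyaluronan receptor, scored -0.393, -0.562, -0.595 and -0.174 against 1.77, 1.09, 1.57 and 1.21 (difference -1.84, SE 0.375, adjusted p = 0.0112). The gap between the lowest control and the highest treated rat was wide in both receptors. Bmp2, a signal by which these cells act on hepcidin in hepatocytes, scored -0.474, -0.606, -0.926 and -0.424 against 0.377, 0.331, 0.262 and 0.315 (difference -0.929, adjusted p = 0.0101). Fcgr2b, a receptor that clears immune complexes, scored 0.416, 0.327, 0.0982 and 0.585 against 1.69, 1.18, 1.41 and 1.24 (difference -1.02, adjusted p = 0.0147). Dnase1l3, a secreted nuclease, scored 0.0964, 0.138, -0.0549 and 0.335 against 1.26, 1.24, 0.731 and 0.831 (adjusted p = 0.0180). Gpr182, an atypical chemokine receptor, scored -0.588, -0.282, -0.554 and -0.416 against 1.10, 1.01, 0.886 and 0.735 (adjusted p = 0.0307). No treated rat overlapped a control in any of the 6.

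The scavenger receptors Stab1 (-0.960, -0.468, -1.29 and -0.511 against 0.875, 1.31, 1.01 and 0.513, adjusted p = 0.139) and Stab2 (-0.121, -0.237, -0.361 and -0.0808 against 1.62, 1.52, 0.309 and 0.693, adjusted p = 0.270) did not pass. Both were still lower in every treated rat than in every control. Clec1b, a C-type lectin, scored -0.450, 0.304, -0.335 and 0.342 against 2.01, 2.21, 1.01 and 2.35, just outside the threshold (adjusted p = 0.0559). Among other markers, the Wnt ligand Wnt2 had a difference of -0.142, the Wnt enhancer Rspo3 one of -0.0805, and clotting factor F8, the 1 marker with a higher mean, one of 0.358. None of these passed. The calls of Mrc1 and Lyve1 held under each omission of an animal. Without animal 23 these were the 2 calls left on the list, and the adjusted p of Bmp2 was 0.0569, of Fcgr2b 0.0690, of Dnase1l3 0.0736 and of Gpr182 0.0888. The call of Dnase1l3 was also lost without animals 13, 14 or 21 and that of Gpr182 under all 8 omissions (up to 0.0888). With the mean of a gene's probe sets the adjusted p of Bmp2 was 0.0794 and that of Gpr182 0.0808.

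Of 31 measured general endothelial genes 24 had a lower mean, 11 were separated downwards (4.09% of all genes were), and the median difference was -0.30. Of the 31, 1 fell and 0 rose (0.324% of all genes fell). That 1 was Fam167b, a little-studied gene expressed in endothelium, with -1.08, -0.845, -0.925 and -0.956 in the treated rats and 0.855, 0.622, 0.493 and 0.0979 in the controls (difference -1.47, SE 0.295, adjusted p = 0.0102). The treated rats lay close together, and the call held under each omission. Pecam1, an adhesion molecule of all endothelium, scored -0.710, -0.799, -0.856 and -0.578 against -0.198, -0.388, -0.404 and -0.457 without overlap, but did not pass (adjusted p = 0.0850). The angiopoietin receptor Tie1 scored -0.854, -1.21, -2.03 and -1.24 against 0.889, -0.721, 0.267 and -0.252 (adjusted p = 0.104), also without overlap. Of 10 VEGF ligands and receptors 0 passed (0.844% of all genes did), with a median of 0.24. With the mean of a gene's probe sets 1 of the 10, not named here, fell, and the median was 0.05. Vegfa, the ligand, scored 0.265, 0.0331, -0.202 and -0.0747 against -0.275, 0.0956, -0.530 and -0.414 (difference 0.286, adjusted p = 0.634). Its main receptor Kdr scored 1.39, 1.27, 1.503 and 1.31 against 0.899, 2.32, 0.243 and 0.261 (difference 0.437, adjusted p = 0.676), with animal 14 far above the other controls. Flt1, the receptor with the higher affinity, scored 0.674, 1.25, 1.84 and 1.49 against 0.815, 1.48, 1.69 and 0.505 (difference 0.194, adjusted p = 0.867). Flt4, the receptor for Vegfc, scored -0.705, -0.736, -0.743 and -0.699 against -0.169, -0.428, -0.475 and -0.645 with no overlap (difference -0.292, adjusted p = 0.0998). The direction for Kdr depended on the probe sets, since their mean gave -0.535, and so did that for Flt1 (-0.127), which was also -0.0117 without animal 16. Among 21 VEGF-responsive and tip-cell genes 0 passed (0.844% of all genes did), with a median of -0.07.

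Macrophage markers had a similar median but 1 call. Of 18 measured markers of macrophages and Kupffer cells 15 had a lower mean and 7 were separated downwards (4.09% of all genes were), with a median of -0.99. The 1 call (0.324% of all genes fell) was Mrc1, which the endothelial list also holds. C1qa, a complement component, scored -0.318, -0.472, -0.875 and 0.308 against 1.32, 0.870, 1.40 and 0.488 (adjusted p = 0.0772) and Csf1r, the receptor for macrophage growth factor, -0.235, -0.529, -1.06 and 0.0537 against 1.33, 1.05, 1.11 and 0.111 (adjusted p = 0.140). In both, animal 24 was the highest treated rat and animal 16 the lowest control. The Kupffer cell lectin Clec4f had a difference of -0.562 (adjusted p = 0.406). The list's mean score was -0.122, -0.0563, -0.337 and 0.397 in the treated rats and 0.973, 0.782, 1.03 and 0.352 in the controls, so that animal 24 lay within the control range. Of 15 hepatocyte markers 0 passed (0.844% of all genes did), and the median was -0.06. A score unit spans the differences between tissues, so a small difference in score need not be a small change. Of these markers 14 had a lower mean and 3 were separated downwards (4.09% of all genes were). Their list mean was 0.650, 0.607, 0.616 and 0.575 in the treated and 0.823, 0.770, 0.668 and 0.786 in the control rats, just without overlap. Albumin (Alb) scored 0.386, 0.330, 0.278 and 0.338 against 0.4001, 0.379, 0.376 and 0.421 (adjusted p = 0.855). The part of macrophage and hepatocyte markers in the endothelial result was not tested.

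Red-cell genes fell at 3 points. Of 22 measured erythroid genes 3 fell and 0 rose (0.324% of all genes fell), and the median difference was -0.28. Hbb, beta globin, scored -1.59, -1.31, -1.55 and -1.49 in the treated rats and -0.0983, 0.681, 0.800 and 0.114 in the controls (difference -1.86, SE 0.198, adjusted p = 2.03e-06). The alpha globin probe set, assigned to Hba-a3, scored -1.01, -0.771, -0.702 and -0.817 against 0.193, 0.992, 2.02 and 0.357 (difference -1.72, adjusted p = 0.000696). Globin genes of one kind are nearly identical in sequence, so which copy a probe set reads is uncertain. Alas2, which starts haem synthesis in red-cell precursors, scored -1.05, -0.940, -1.28 and -1.15 against 0.459, 1.90, 2.51 and 0.557 (difference -2.46, SE 0.398, adjusted p = 0.00113). For all 3 the treated rats were tightly grouped below widely spread controls, and the calls held under each omission. Fitted on the 8 arrays alone, Hbb kept its call, while the adjusted p was 0.130 for Hba-a3 and 0.0815 for Alas2. Other red-cell genes did not pass, among them the transcription factors Gata1 (difference -1.27, adjusted p = 0.137) and Klf1 (-0.0712, adjusted p = 0.954) and the anion exchanger Slc4a1 (-0.0102, adjusted p = 0.997). The erythroid list mean was -0.0573, -0.174, -0.0109 and -0.221 in the treated rats and 0.347, 0.501, 0.519 and 0.166 in the controls. Whether the amount of blood left in the tissue differed between the groups was not tested.

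Matrix and stellate cell genes gave single calls. Of 26 measured matrix genes 1 fell (0.324% of all genes did), namely Sparc, a collagen-binding protein of basement membranes. It scored -1.18, -1.14, -1.19 and -1.09 against -0.653, -0.795, -0.800 and -0.861 (difference -0.372, SE 0.0593, adjusted p = 0.00109), with very narrow groups. The call was lost with only the compared groups in the fit (0.0735). The basement membrane collagen Col4a1 scored -0.816, -0.775, -1.06 and -0.837 against -0.654, -0.445, -0.486 and -0.416 and missed the threshold (adjusted p = 0.0537), and interstitial collagens such as Col1a1 had a difference of 0.0259 (adjusted p = 0.945). Of 11 stellate cell markers 2 fell (0.324% of all genes did). Pth1r, the receptor for parathyroid hormone, scored 0.781, 0.327, 0.491 and 0.652 against 1.61, 1.82, 1.502 and 1.40 (difference -1.02, adjusted p = 0.00606), although another probe set of this gene moved the other way and the call was lost with their mean (adjusted p = 0.600). Colec11, a collectin, scored 1.12, 0.504, 0.428 and 0.736 against 1.31, 1.40, 1.39 and 1.34 (difference -0.666, adjusted p = 0.0108), a call lost without animal 23 (adjusted p = 0.0644). The stellate markers Lrat (difference -0.0925) and Reln (-0.196) did not pass. The other lists with a call held 1 each (0.521% of all genes rose and 0.324% fell). Dnajc3 (a co-chaperone of the endoplasmic reticulum, 1 of 18) rose at adjusted p = 0.0373. Pdk1 (a hypoxia-inducible kinase, 1 of 28) rose at adjusted p = 0.0485, and Atf5 (1 of 18 amino acid stress genes) fell at adjusted p = 0.0477. Those calls were lost under 7, 6 and 7 omissions (up to 0.109, 0.158 and 0.138). The chaperone list had a median of 0.41, with 16 of 18 genes higher. Uggt1, which checks the folding of glycoproteins, is on no list and was chosen after its values were seen: it scored 1.79, 1.93, 1.61 and 2.05 against 0.973, 0.330, -0.158 and 0.323 (adjusted p = 0.00606, or 0.0604 with only the compared groups).

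Of the 120 called genes, 81 were on no list. The largest rises among them included Thnsl1, named for its likeness to threonine synthase, with 3.22, 2.92, 3.42 and 1.72 in the treated rats and 0.505, 0.00614, 0.482 and 0.845 in the controls (difference 2.36, adjusted p = 0.00109). Txn1, thioredoxin, scored 0.414, 1.91, 1.28 and 1.88 against -0.842, -0.733, -0.689 and -0.133 (difference 1.97, adjusted p = 0.00111). Nrn1l, a relative of neuritin, scored 3.43, 3.32, 2.95 and 2.90 against 0.595, 0.774, 2.09 and 0.402 (difference 2.19, adjusted p = 0.00116), with animal 15 highest among the controls. These 3 calls held under each omission and were lost with only the compared groups in the fit (adjusted p = 0.0539 for Thnsl1, 0.0729 for Txn1 and 0.0616 for Nrn1l). Tm7sf3 (difference 2.28, adjusted p up to 0.155 without an animal), Tedc1, a centriole protein gene (1.68, up to 0.0980) and the imprinted gene Phlda2 (1.67, up to 0.112) rose too, with calls lost under 7, 6 and 6 omissions. Ifitm10, named as a member of the interferon-induced transmembrane family, was chosen after its values were seen. It scored 1.61, 1.48, 1.33 and 1.13 against -0.290, 0.00827, -0.0230 and -0.00718 (adjusted p = 6.26e-05).

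Among falls outside the lists, Nkrf, a repressor of NF-kB, had the largest difference (-1.34, -1.78, -1.44 and -1.46 against 0.692, 1.21, 0.298 and 0.461, difference -2.17, adjusted p = 0.0183). Another of its probe sets moved the other way, and with their mean the adjusted p was 0.327. Bcorl1, a transcriptional corepressor, scored -0.2400, -0.519, -0.794 and -1.75 against 1.25, 2.10, 0.462 and 1.52 (adjusted p = 0.0276), a call lost without animals 14, 16, 23 or 24 (up to 0.110). Pla2g4a, the phospholipase that frees arachidonic acid, scored -1.04, -1.15, -1.60 and -0.233 against 1.22, 1.36, 0.806 and 0.288 (difference -1.93, adjusted p = 0.0147) and lost its call without animals 14 or 23 (up to 0.0736). Stac, an adaptor protein, scored -1.74, -1.24, -1.53 and -1.48 against -0.800, -0.157, 0.142 and 0.154 (adjusted p = 0.00150), a call that held under each omission but not with only the compared groups (0.0635). The falls of Adam23, a cell surface protein (difference -1.33, lost without animal 23 at adjusted p = 0.0516), of Arvcf, a catenin (-1.29, lost under 4 omissions, up to 0.111), of Ccdc106 (-1.55, lost under 7, up to 0.130) and of Cfp, properdin (-1.26, lost under 7, up to 0.142) were the weaker calls. Chosen after their values were seen, Vipr1, a receptor for vasoactive intestinal peptide, fell (0.697, 0.512, 0.341 and 0.572 against 1.28, 1.18, 1.20 and 1.30, adjusted p = 0.00113), and so did the platelet integrin Itgb3 (-0.946) with its partner Fermt3 (-0.755) and the transcription factor Ets1 (-0.350). The call of Vipr1 held under each omission but was lost with the mean of its probe sets and with only the compared groups (up to 0.131), and the others were lost under 6, 7 and 6 (up to 0.125, 0.140 and 0.117).

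Over all genes 0.844% passed, and the lists with no call covered much of hepatocyte metabolism and inflammation. They included 24 acute phase genes (median -0.05), 24 genes of fatty acid oxidation (-0.11), 18 of bile acid synthesis and transport (-0.01), 22 of gluconeogenesis and amino acid breakdown (-0.06), 12 coagulation factors (-0.02), 11 targets of p53 (-0.0039), 19 inflammatory cytokines and chemokines (-0.14) and 16 clock genes (0.10). A p that misses the threshold does not show that these genes were alike in both groups. Because a score unit spans the differences between tissues, a small median need not be a small change either. Over the 30 lists without a call the medians ran from -0.44, for angiopoietins and Tie receptors, to 0.25, for fatty acid and triglyceride synthesis.

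How the response depended on dose was read from the rats given 3 mg/kg on the same day, which were compared with the same controls. At 3 mg/kg 2 genes passed (0.0141%), 1 in each direction (0.00703% each). The phosphatase gene Mtmr7 rose (difference 2.48, adjusted p = 3.30e-05) and Hba-a3 fell (-1.44, adjusted p = 0.0426). The Hba-a3 call was lost without animals 14, 15, 17, 19 or 20 (up to 0.235), and the count was 5 without animal 13 and 1 without each of animals 15, 19 and 20. Tested directly, 60 mg/kg differed from 3 mg/kg in 35 genes (0.246%), 29 higher (0.204%) and 6 lower (0.0422%) at 60 mg/kg. This count was 19 without animal 18, 20 without animal 19, 19 without animal 21 and 13 without animal 23, and 22 without animal 22; 12 of the 35 held under each of the 8 omissions. Cell cycle genes made up 9 of the 29, out of 65 measured members of that list (0.204% of all genes were higher). At 3 mg/kg Cdkn3 scored -0.504, -0.405, 0.0536 and -0.418 (animals 17 to 20), all below every rat at 60 mg/kg (difference between doses 3.23, adjusted p = 3.85e-06). Cdk1 scored -0.664, -0.733, -0.434 and -0.705 (difference between doses 2.20, adjusted p = 0.000549) and Cyp1a1 -0.317, -0.275, -0.321 and -0.289 (3.05, adjusted p = 7.38e-08). For these 3 genes the 3 mg/kg rats lay close to or within the range of the controls.

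Other genes had values between the 2 groups at 3 mg/kg. Lyve1 scored 0.0532, 0.734, -0.411 and 0.479 and Mrc1 0.563, 1.04, 0.192 and 0.563, both lower in mean than the controls and higher than at 60 mg/kg, and neither passed against the higher dose (adjusted p = 0.576 and 0.194). Psmb9 scored -0.162, 0.0765, 0.107 and -0.283, between the groups in every rat (adjusted p against 60 mg/kg = 0.200). Cyp1a2 scored 0.808, 0.884, 0.584 and 0.894, above every control and below every rat at 60 mg/kg (adjusted p = 0.141). Hbb scored -0.941, -0.124, -0.461 and -0.929 and Alas2 -0.663, 0.150, -0.535 and -0.904 (adjusted p = 0.0528 and 0.641). The sinusoidal list had 0 calls between the doses, with a mean score of 0.365 to 0.690 at 3 mg/kg, above every rat at 60 mg/kg and reaching into the range of the controls. The largest difference in the other direction was that of Mtmr7, which scored 3.78, 3.83, 3.23 and 3.73 at 3 mg/kg, 0.837, 1.21, 1.59 and 1.65 at 60 mg/kg and 1.29, 1.34, 0.996 and 1.01 in the controls (difference between doses -2.32, adjusted p = 4.37e-05). Every rat at 3 mg/kg was thus above every rat of the other groups, and the call held under each omission. Gldc, the glycine decarboxylase (difference between doses -1.52), Arvcf (-1.28) and Tram2 (-1.16) were lower at 60 than at 3 mg/kg too, with calls lost under 4, 6 and 5 omissions (up to 0.109, 0.217 and 0.146). Spc25, a kinetochore gene, was higher at 60 mg/kg (2.81, adjusted p = 0.0328), a call lost under 5 omissions (up to 0.125).

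How the response moved with time was read from 60 mg/kg rats and their own controls on days 1 and 14. On day 1, 17 genes passed (0.12%), 7 higher (0.0492%) and 10 lower (0.0703%). On day 14 it was 1041 (7.32%), 503 higher (3.54%) and 538 lower (3.78%). Fitted on the 8 compared arrays of each day alone, the counts were 12 on day 1, 61 on day 4 and 54 on day 14, so the higher count on day 14 did not hold in those fits. The day 1 count was 9 without animal 12 and 11 without animal 4, and the day 14 count was 664 without animal 26 and 679 without animal 25. Of the day 4 calls, 9 were called in the same direction on day 1 (7.5% of the day 4 calls and 52.9% of the day 1 calls). On day 14 it was 40, 14 rises and 26 falls (33.3% of the day 4 calls and 3.84% of the day 14 calls). Among them were Cyp1a1, with differences of 2.73, 3.05 and 4.72 on days 1, 4 and 14, and Ifitm10, with 2.08, 1.47 and 2.11. Lyve1 had -2.01, -1.84 and -1.86, Fam167b -1.96, -1.47 and -1.62, and Hbb -1.05, -1.86 and -1.83. All 5 were called on each of the 3 days, but the day 1 call of Lyve1 was lost without animals 4, 11 or 12 (adjusted p up to 0.0848) and that of Hbb without animals 2, 9 or 12 (up to 0.106). With only the 8 compared arrays of day 1 in the fit, the day 1 calls of Lyve1, Hbb and Cyp1a1 were lost (adjusted p = 0.107, 0.196 and 0.172). The sinusoidal list had 2, 6 and 9 of 14 members lower on days 1, 4 and 14, with medians of -0.48, -0.98 and -1.01. Of the 2 on day 1, Lyve1 and Stab2, the call of Stab2 was lost under 7 of 8 omissions (up to 0.165). The 2 genes called in opposite directions on days 4 and 14 were Cisd1, a mitochondrial iron-sulphur protein (-0.650 and 0.576), and Ndufa11, a respiratory chain subunit (0.905 and -0.589).

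**Figure D4:**
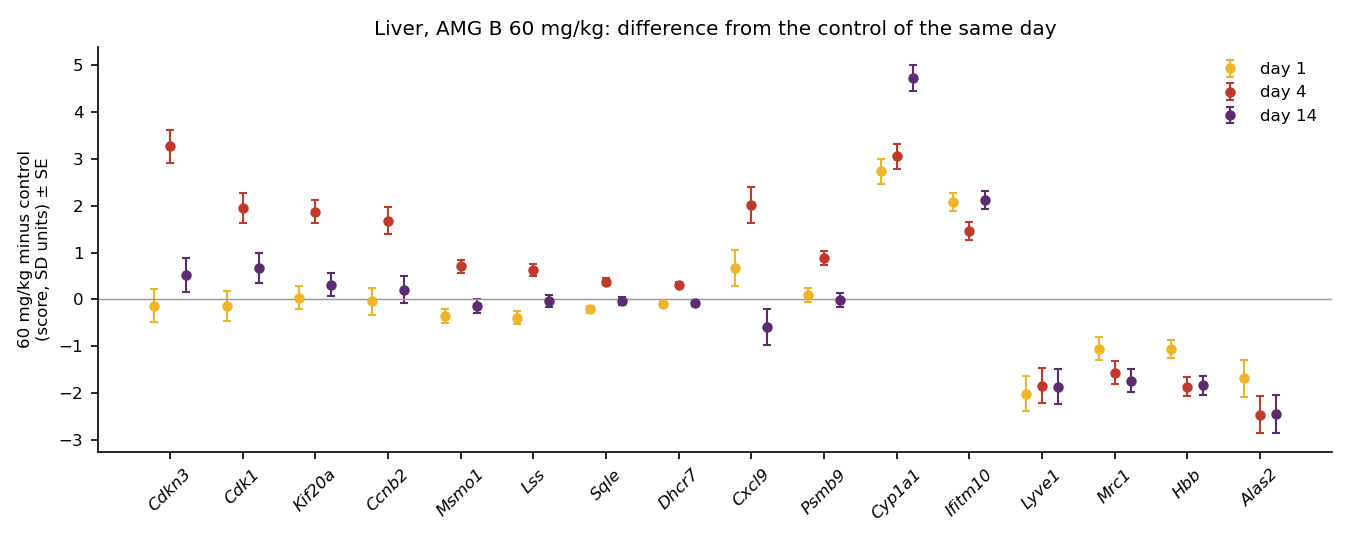
Difference in score between 60 mg/kg and control rats of the same day (vertical, SD units; bars are ± 1 standard error from limma) for 16 genes on days 1, 4 and 14. Cell cycle and cholesterol genes, Cxcl9 and Psmb9 are highest on day 4, while Cyp1a1, Ifitm10, Lyve1, Mrc1, Hbb and Alas2 point the same way on all 3 days.

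Whether the effect itself differed between days was tested next. Against day 1, 5 genes had a larger effect on day 4 (0.0352%) and 0 a smaller one (885 genes at an unadjusted p under 0.05, either direction). These were Cdkn3 (effect -0.135 on day 1 and 3.26 on day 4, difference 3.40, adjusted p = 0.00274), Kif20a (0.0360 and 1.87, adjusted p = 0.0380), Msmo1 (-0.351 and 0.704), Lss (-0.387 and 0.631) and Sqle (-0.211 and 0.378), the last 3 also at adjusted p = 0.0380. The 3 cholesterol genes had thus a lower mean than the controls on day 1 and a higher one on day 4. Of these 5 calls only that of Cdkn3 held under each of 16 omissions, and the others were lost under 12 or 13 of them (up to 0.150). With the arrays centred, or without the trend, the count was 1, with the filter 3 and with only the compared groups 2. The count was 1 without any one of animals 1, 2, 4, 9, 10, 12, 14, 15, 16, 22 and 23, 2 without animal 11 and 3 without animal 3, and rose to 8 without animal 24 and 11 without animal 13. Over the lists, the cell cycle median was -0.02, 0.48 and 0.21 on days 1, 4 and 14, that of cholesterol genes -0.22, 0.35 and -0.14, and that of interferon-inducible genes 0.15, 0.48 and 0.20.

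Against day 14, 66 genes had a different effect on day 4 (0.464%), 36 higher (0.253%) and 30 lower (0.211%). The count was 4 with only the compared groups in the fit and 33 with quantile normalization. Leaving out an animal gave 9 to 91, with 17 without animal 14, 10 without animal 15, 19 without animal 16, 37 without animal 21, 42 without animal 22, 9 without animal 23, 12 without animal 26 and 13 without animal 28; 8 of the 66 held under each of 16 omissions. Cdkn3 was among the 8 (effect 3.26 on day 4 and 0.521 on day 14, adjusted p = 0.0139). Phlda2 (1.67 and -1.07, adjusted p = 0.0284) and Cxcl9 (2.01 and -0.590, adjusted p = 0.0306) were higher on day 4, with calls lost under 4 and 7 omissions (up to 0.0620 and 0.0637). For Ifnb1, interferon beta, the effects were 0.889 and -1.84 (adjusted p = 0.0315), lost under 7 omissions (up to 0.0719), and the day 4 effect alone did not pass (adjusted p = 0.365). The matrix gene Col24a1 had effects of 1.10 and -1.499 (adjusted p = 0.0284, lost without animals 15 or 26, up to 0.0551). Thnsl1, Kif20a, Psmb9, Msmo1 and Dhcr7 were also higher on day 4, with calls lost under 11, 11, 15, 14 and 7 of 16 omissions.

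Among the 30 genes with a lower effect on day 4 than on day 14, those with the largest differences were read first. The citrate transporter Slc13a5 had effects of -0.297 on day 4 and 3.91 on day 14 (adjusted p = 0.0376), and Acmsd, an enzyme of tryptophan breakdown, 0.211 and 4.12 (adjusted p = 0.0284). Enkd1 had 0.328 and 3.20, and the endocytic receptor Ly75 0.0405 and 2.80 (adjusted p = 0.0141). Of these 4 the call of Ly75 held under each omission, and the others were lost under 11, 4 and 14 (up to 0.0834, 0.0620 and 0.103). Cyp1a1 rose by more on day 14 than on day 4 (difference of the effects -1.67, adjusted p = 0.0448), a call lost under 14 omissions (up to 0.0890).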

How the data were processed

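Liver RNA of each rat was labelled and hybridised to an Affymetrix array, per the labels' protocols. The authors deposited a score per probe set, standardised over the arrays of the series. How the arrays were summarised and scaled before that is not stated in the labels. The larger table (31042 probe sets, 108 arrays) was used, and the smaller one (15866 probe sets, 36 arrays) served to check the standardisation. For each of 14217 genes, 1 probe set was kept, the one whose variance lay most between tissues. Scores of 36 AMG B liver arrays in 9 groups of 4 were fitted with limma 3.58.1 (lmFit and eBayes with trend, R 4.3.3) with no filter, and p values were adjusted by Benjamini-Hochberg over all genes. The fit was tested on simulated data, with shifts in units of each gene's SD within groups. It recovered 14 of 100 genes shifted by 2 SD and 89 of 100 shifted by 4 SD, and called 5 unchanged genes. Most shifts of 2 SD were thus missed. The simulated noise had 1 SD per gene in all 9 groups, as the fit assumes. The simulation therefore cannot show how calls fare where the spread differs between groups. Depth has no meaning for arrays, and their number limits the precision. The p values measure the spread between rats.

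Named genes were the 15 largest rises and 15 largest falls among called genes with a symbol and no overlap between groups, the called members of each list, and a few defining members. Members, lists and rule were chosen with earlier results of these data known. Alternatives were quantile normalization, centring on array medians, a filter (scores above the 40th percentile on 4 or more arrays), the mean of a gene's probe sets, no trend, the compared groups alone, and each animal left out.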

Additional observations from a re-analysis of the deposited data

Results flagged for a closer look

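Of 140 groups of 4 values checked for a value far from the rest, 5 held one, and chance gives about 1 in 20. Among the treated rats these were animal 23 for Ccdc106 (score 0.437) and for Sqle (0.191), and animal 24 for Ect2 (0.545). Among the controls it was animal 13, for Msmo1 (-0.278) and for the mean over the extracellular matrix list (-0.267).

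The effect of 60 mg/kg differed between days, by limma's test of the difference, for these named genes. Day 4 minus day 1 gave 3.40 for Cdkn3, 1.84 for Kif20a, 1.06 for Msmo1, 1.02 for Lss and 0.589 for Sqle. Day 4 minus day 14 gave 2.74 for Cdkn3, 2.74 for Phlda2, 2.603 for Cxcl9, 2.35 for Thnsl1, 1.555 for Kif20a, 0.897 for Psmb9, 0.844 for Msmo1, 0.389 for Dhcr7 and -1.67 for Cyp1a1.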

How the results depend on the processing

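At 60 mg/kg on day 4 the 120 calls became 121 without the trend, 110 with centred arrays, 102 with the filter, 137 with the mean of probe sets, 123 with quantile normalization and 61 with only the compared groups. Leaving out an animal gave 50 to 142 calls, and 15 of the 120 held under every alternative and omission run. For 3 mg/kg against control, centred arrays and quantile normalization each gave 1 call and omissions 1 to 5. For 60 against 3 mg/kg omissions gave 13 to 51. For 60 mg/kg on day 1 they gave 9 to 16, and on day 14 they gave 664 to 1038, with 54 calls from only the compared groups. For the effect on day 4 minus day 1, no trend gave 1, centred arrays 1, the filter 3, only the compared groups 2 and omissions 1 to 11. For day 4 minus day 14, only the compared groups gave 4, quantile normalization 33 and omissions 9 to 91. The fit to only the compared groups estimates the spread from fewer samples and from those groups alone. The cause of these changes in count, that fit's included, was not tested. The direction turned for Flt1 with the mean of probe sets (-0.127) and without animal 16 (range over omissions -0.0117 to 0.407). It turned for Kdr with the mean of probe sets (-0.535). Neither gene was called with 1 probe set kept per gene, and their adjusted p with the mean of probe sets is not given here. Another pseudocount was not run, since scores are not logged here. No paired analysis was possible because the compared groups share no animal numbers.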
